A study of Mus musculus with 10 samples.

Results

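The nuclear genes for the subunits of respiratory complexes II to V were examined in the preoptic region of the mouse hypothalamus during inflammation. Members were the genes whose only annotated symbol is Sdha, Sdhb, Sdhc, Sdhd, Cyc1 or Cycs, or starts with Uqcr, Cox4 to Cox8 or Atp5, and each was read from its brightest probe set by mean log2(signal + 16). This gave 48 genes of 18193 on the array, 4 of complex II, 9 of complex III, 1 for cytochrome c, 17 of complex IV and 17 of complex V. The measured groups were 5 mice labelled WT and 5 labelled KO for mPGES-1, a prostaglandin E2 synthase induced in inflammation and encoded by Ptges. All 10 mice were of the DBA1/lacJ background, were given 120 µg/kg of lipopolysaccharide (LPS) into the peritoneum, and were sampled 5 h later. Each mouse gave 1 array, after laser capture of the region and amplification of its RNA. The labels do not give the animals' age or sex or the part of Ptges that was deleted, and mice without LPS were not analysed here. The 3 Ptges probe sets gave mean signals of 50, 40.2 and 37.3 in the arrays labelled KO and 4.54, 13.4 and 30.7 in those labelled WT. These signals are low: the median signal of an array was 32 to 44.8 in WT and 24.6 to 29.8 in KO. All 3 lie below the filter on dim genes described below. They can show neither a rise of Ptges in KO nor an exchange of labels, so every direction below rests on the labels alone.

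Complexes II to IV pass electrons from succinate and ubiquinol to oxygen, and complex V, the ATP synthase, uses the resulting proton gradient to make ATP. Complex II is also an enzyme of the citric acid cycle, complex III hands electrons to the small carrier cytochrome c, and complex IV (cytochrome c oxidase) reduces oxygen to water. In brain these complexes supply most of the ATP spent on ion pumping and synaptic transmission. The members studied here are nuclear genes, whereas the catalytic core of complex IV, cytochrome b and a part of the ATP synthase membrane sector are encoded by mitochondrial DNA.

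Many nuclear subunit genes are known as targets of NRF1, of the ETS factor GABPA (also called NRF2), of YY1 and of the nuclear receptor ERRA. RefSeq promoters (GRCm38.p6, 250 bases before to 50 bases after the start) were found for 36 of the 48 members and were searched on both strands for short forms of these motifs. The NRF1 letters GCATGCGC occurred in the promoters of 8 of the 36 genes (22.2%), against 6.12% of 8855 tested genes with a promoter. The GABPA letters CCGGAAG occurred in 13 (36.1%, against 19.2%), the ERRA letters AAGGTCA in 5 (13.9%, against 3.85%) and the YY1 letters AAGATGG in 4 (11.1%, against 8.42%). The letters GGGCGG, bound by SP and KLF factors, occurred in 15 (41.7%, against 69.2%). Among all 27025 genes of the table the shares were 3.05% for NRF1, 9.93% for GABPA, 5.38% for ERRA, 7.28% for YY1 and 38.2% for SP and KLF. A match is a run of letters in a window and not a measured site. The bases just before the start are printed for 7 members of different complexes that the results below describe, with every motif match that lies wholly inside the window in capitals:
Sdhb, chr4:140961201-140961270, + strand: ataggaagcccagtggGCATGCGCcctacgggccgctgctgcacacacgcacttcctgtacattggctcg
Sdhd, chr9:50603850-50603909, - strand: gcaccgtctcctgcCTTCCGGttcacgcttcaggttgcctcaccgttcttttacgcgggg
Uqcr11, chr10:80406822-80406901, - strand: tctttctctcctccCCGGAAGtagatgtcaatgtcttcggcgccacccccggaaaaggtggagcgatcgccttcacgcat
Cycs, chr6:50566570-50566639, - strand: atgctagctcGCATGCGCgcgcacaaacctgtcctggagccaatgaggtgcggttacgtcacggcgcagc
Cox6a1, chr5:115348959-115349128, - strand: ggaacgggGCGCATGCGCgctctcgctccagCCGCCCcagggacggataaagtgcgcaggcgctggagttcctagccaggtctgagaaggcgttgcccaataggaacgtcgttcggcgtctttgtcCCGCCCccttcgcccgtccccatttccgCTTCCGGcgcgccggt
Atp5h, chr11:115419920-115419979, - strand: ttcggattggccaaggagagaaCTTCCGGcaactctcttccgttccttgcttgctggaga
Atp5g3, chr2:73911327-73911396, - strand: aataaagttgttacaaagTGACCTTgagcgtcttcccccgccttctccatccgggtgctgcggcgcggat
The capitals mark NRF1 letters in Sdhb, Cycs and Cox6a1, GABPA letters in Sdhd, Uqcr11, Cox6a1 and Atp5h, ERRA letters in Atp5g3 and SP and KLF letters in Cox6a1. In Cox6a1 the NRF1 letters occur on both strands and overlap, so 10 capitals stand together.

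All arrays had the same trimmed mean, and the shape of their signal distributions differed between the labels. The median signal of an array was 32 to 44.8 in WT and 24.6 to 29.8 in KO, and the signal that 1% of probe sets exceeded was 8579 to 9230 in WT and 7503 to 8280 in KO, without overlap in either case. The mean signal of the hybridization controls was 10559, 16145, 14898, 13829 and 6244 in WT replicates 1 to 5 and 4394 to 7549 in KO, so that WT replicate 5 lay among the KO arrays and the other 4 above them. The part of these array measures in the results was not tested. The ratio of 3′ to 5′ signal of the Gapdh controls, a sign of RNA length, overlapped (24.6 to 53.4 in WT and 33.2 to 51.5 in KO). That of actin was 116 to 355 in WT and 112 to 298 in KO. On every array 3′ signal was thus many times 5′ signal. The part of this in dim probe sets, or in probe sets of 1 gene that disagree, was not tested. Signal of the poly-A spike-in RNAs was seen on 7 of the arrays and was 18, 5.11 and 4.39 on WT replicates 2 and 5 and KO replicate 3. Of the 8 listed preoptic markers 7 had a single-gene probe set, and all 7, among them Gal, Nts and Esr1, were above the filter on dim genes. Because the shape differed, each value is given as deposited and after quantile normalization, which gives all arrays the same distribution. A shift shared by most of the brightest genes is removed by this step. Its loss after quantile normalization is therefore no result about the members.

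As deposited, most tested subunit genes of complexes II to V had lower signal in mice labelled KO, but 0 of 42 passed the test over all genes (limma, Benjamini-Hochberg adjusted p below 0.05), where 0.11% of 10916 tested genes passed. Of these 42 genes, which lay above the filter that leaves out the dimmest 40%, 30 were lower and 12 were higher, with a median difference of -0.16 on the log2 scale; over all genes tested 52.2% were lower and the median was -0.02. Centring the arrays on their median signal shifts every difference by the same amount. It left 11 members lower and 31 higher (median 0.12, against 0.26 over all genes). With it 4 of 42 members passed limma's threshold, Cox6a1 lower and Sdhd, Cycs and Atp5b higher, beside 983 of 10916 genes tested. Of all genes, 1.63% were then lower and 27.4% higher at unadjusted p below 0.05. As deposited, 7 members were lower and 2 higher at unadjusted p below 0.05, where 10.1% of all genes tested were lower and 7.95% higher. At the looser limma adjusted p below 0.1 there were 5, Cox6a1, Atp5d, Atp5h, Cox5b and Uqcrc2, all lower, where 4.08% of genes tested were called at that level, 2.54% lower and 1.54% higher. After quantile normalization the members were split 21 to 21 with a median of -0.002, against 0.01 over all genes. There 0 members were lower and 4 were higher at unadjusted p below 0.05 (Sdhd, Cycs, Atp5b and Atp5g3), beside 7.33% lower and 8.02% higher of all genes, and 0 members and 0 genes passed limma's adjusted threshold (1676 genes had an unadjusted p below 0.05). At limma's adjusted p below 0.1 there were 0 members, where 0.183% of genes were called, 0.137% lower and 0.0458% higher.

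**Figure D1:**
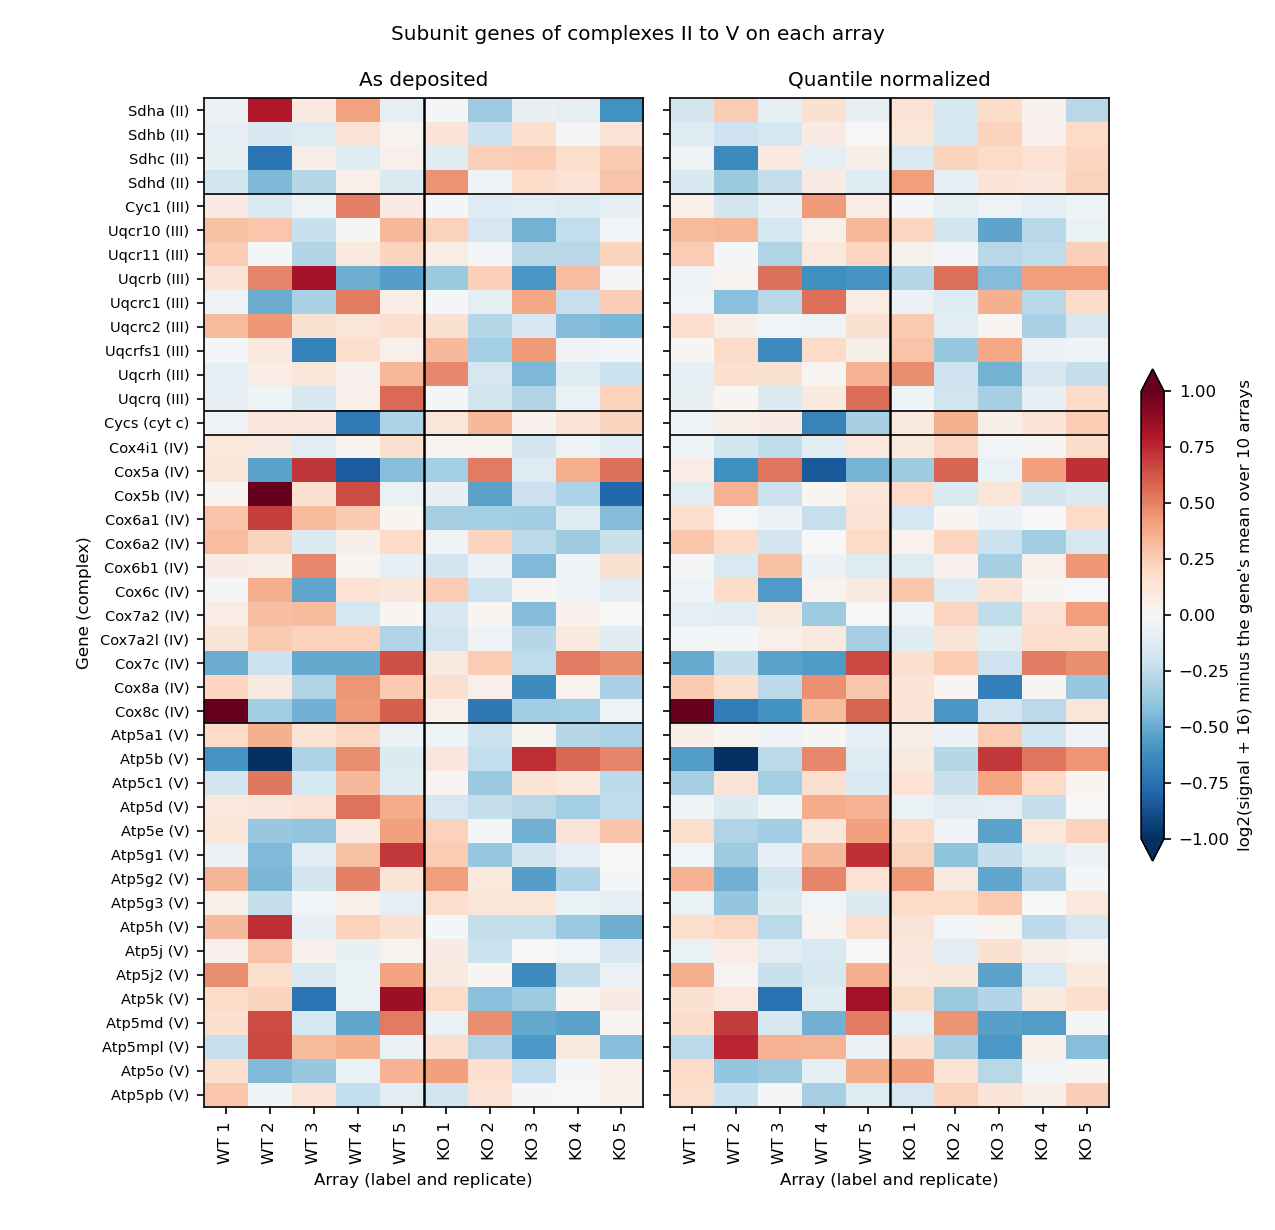
Each row is 1 of the 42 tested genes with its complex in brackets, each column is 1 array, and the colour is log2(signal + 16) minus the gene's mean over the 10 arrays, with values beyond 1 in either direction drawn in the end colours. As deposited (left) the WT columns hold more red and the KO columns more blue in complexes IV and V, and after quantile normalization (right), where 21 genes are lower and 21 higher, this difference is not seen.

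Taken array by array, the median deviation of the 42 genes from their own means was 0.10, 0.10, -0.11, 0.10 and 0.08 in WT and 0.06, -0.11, -0.25, -0.05 and -0.02 in KO. WT replicate 3 lay among the KO arrays, and the other 4 WT arrays lay above all 5 KO arrays. WT replicate 3 also had the highest 3′ to 5′ ratio of Gapdh (53.4) and of actin (355) of all arrays. KO replicate 2 was close to it in Gapdh (51.5) and KO replicate 5 was next in actin (298), with median deviations of -0.11 and -0.02. The part of these ratios in the deviations was not tested. Without WT replicate 3 there were 11 lower and 5 higher members at unadjusted p below 0.05, where 10.6% of all genes tested were lower and 9.27% higher at that level. After quantile normalization the same deviations were -0.02, -0.01, -0.17, 0.03 and 0.10 in WT and 0.12, -0.05, -0.08, 0.00 and 0.10 in KO, and the groups overlapped.

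Of the 4 complex II members 3 were higher both as deposited and after quantile normalization, with medians of 0.20 and 0.21, and the median was 0.011 when the probe sets of a gene were averaged. Differences between complexes were not tested. Sdha, which encodes the flavoprotein that oxidizes succinate, gave signals of 18972, 34475, 21079, 26127 and 18411 in WT and 19447, 15292, 18662, 18606 and 12938 in KO. The groups overlapped, WT replicate 2 was the highest array, and the difference was -0.46 (SE 0.17, limma adjusted p = 0.173), or -0.03 after quantile normalization. Sdhd, which encodes a membrane anchor that binds ubiquinone, went the other way, at 751, 629, 702, 893 and 778 in WT and 1186, 836, 988, 951 and 1050 in KO. Only WT replicate 4 reached above the lowest KO array, and the difference was 0.41 (SE 0.15, limma adjusted p = 0.158) as deposited and 0.33 (limma adjusted p = 0.300) after quantile normalization. The other anchor gene, Sdhc, stood at 714, 448, 788, 691 and 779 in WT and 691, 896, 903, 850 and 908 in KO, a difference of 0.33 (SE 0.17, limma adjusted p = 0.327). In Sdhc the KO arrays were all above the WT maximum apart from KO replicate 1. Sdhb, encoding the iron-sulfur subunit, lay between 3931 and 4888 in WT and between 3812 and 4942 in KO, with a difference of 0.08 (95% interval -0.18 to 0.34). The members of this complex lay on both sides of 0, and none passed the test.

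In complex III, which moves electrons from ubiquinol to cytochrome c, 7 of 9 members were lower as deposited (median -0.17) and 6 of 9 after quantile normalization (median -0.12). Uqcrc2, which encodes a core subunit, gave 19501, 21101, 17404, 17118 and 17579 in WT and 17469, 12823, 13990, 11535 and 11428 in KO. The KO arrays apart from replicate 1 lay below every WT array. Its mean was 18540 ± 1712 (SD, n = 5) in WT and 13449 ± 2480 in KO, 0.719 times as high on the log2(signal + 16) scale (log2 -0.48, SE 0.13, limma adjusted p = 0.0841), and -0.12 (limma adjusted p = 0.646) after quantile normalization. Cyc1, for the haem-bearing cytochrome c1, lay between 3678 and 5764 in WT and within 3716 to 4054 in KO, at -0.19 (SE 0.13). The small subunit genes Uqcr10 at -0.27 (SE 0.16) and Uqcrh at -0.19 (SE 0.18) were at -0.34 and -0.24 after quantile normalization (limma adjusted p = 0.342 and 0.563). Uqcr11, Uqcrq and Uqcrb, for further small subunits, were at -0.11, -0.13 and -0.17 as deposited and at -0.10, -0.19 and 0.27 after quantile normalization. On the other side were Uqcrfs1, for the Rieske iron-sulfur protein, at 0.15 (SE 0.19; WT 619, 680, 390, 707 and 650, KO 791, 494, 854, 614 and 625) and the core subunit gene Uqcrc1 at 0.12. The Uqcrfs1 difference was -0.00019 without WT replicate 3, whose signal of 390 was the lowest of all 10. No gene of complex III separated the labels on every array.

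Cycs, for cytochrome c itself, did not pass the test. Its signals were 3218, 3575, 3577, 2021 and 2669 in WT and 3609, 4137, 3409, 3614 and 3855 in KO, so that 4 of 5 KO arrays lay above the highest WT array. The difference was 0.33 (SE 0.16, limma adjusted p = 0.278) as deposited and 0.36 (SE 0.15, limma adjusted p = 0.264) after quantile normalization. Of its 4 probe sets 3 were higher, at 0.33, 0.47 and 0.08, and the dimmest was at -0.06.

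In complex IV 10 of 12 tested genes were lower as deposited (median -0.22) and 5 of 12 after quantile normalization (median 0.06). As deposited it held the members with the smallest p (Cox6a1) and the largest difference (Cox5b), and after quantile normalization both were in complex V (Atp5g3 and Atp5b). Cox6a1, which encodes a regulatory subunit of the oxidase, gave 44321, 58512, 45482, 43637 and 36956 in WT and 28986, 28643, 28562, 33375 and 26900 in KO. All 5 KO arrays lay below all 5 WT arrays. The mean was 45781 ± 7854 (SD, n = 5) against 29293 ± 2421, a log2 difference of -0.63 (SE 0.12, limma adjusted p = 0.0522) that became -0.01 (95% interval -0.22 to 0.19, limma adjusted p = 0.970) after quantile normalization. The searched promoter windows were all of the same length, and more bases were printed above for Cox6a1 than for other genes. Its window held matches to 3 of the motifs, as did those of Sdhb, Sdhd, Atp5e, Atp5k and Atp5l. Cox5b, for a zinc-binding subunit, gave 45864, 101071, 50797, 71161 and 43212 in WT and 42899, 31103, 39042, 36722 and 26307 in KO. The groups did not overlap, but the highest KO array was close to the lowest WT array, and the WT arrays ranged widely. The difference of -0.77 (SE 0.21, limma adjusted p = 0.0814) was -0.06 after quantile normalization, and its probe set ends in _x_at, a mark of possible cross-hybridization. Its other _x_at probe sets, at mean log2 signals of 15.3 and 13.27, were at -0.70 and -0.56. The brightest Cox5b probe set that lacks this mark was at -0.01, but its mean log2 signal was 9.76. The mark and the brightness of the probe sets cannot be told apart here.

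The oxidase members with higher signal were Cox7c and Cox5a. Cox7c, a small core-associated subunit, gave 98.4, 123, 97.1, 97.3 and 236 in WT and 156, 176, 119, 215 and 207 in KO. WT replicate 5 was the highest array of all, and the other 4 WT arrays were below 4 of the 5 KO arrays, with a difference of 0.43 (SE 0.245, limma adjusted p = 0.367) as deposited and 0.47 after quantile normalization. Cox5a, for a subunit on the matrix side of the oxidase, spread from 3532 to 10267 in WT and from 4953 to 9203 in KO (0.39, SE 0.26). Cox4i1, the main isoform of the largest nuclear subunit, differed little, from 12686 to 15132 in WT and from 11987 to 13979 in KO, at -0.11 (95% interval -0.33 to 0.11) as deposited and 0.20 after quantile normalization. Cox7a2l, a factor that joins complexes III and IV in supercomplexes and falls under the naming rule, was at -0.21 and 0.09. The genes Cox6b1, Cox6c and Cox7a2 turned likewise, from -0.23, -0.03 and -0.21 to 0.02, 0.12 and 0.19. Cox8a, for a small membrane subunit, was at -0.28 and -0.36. None of these 8 genes passed limma's threshold under either scaling.

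Isoforms of complex IV that are known from heart, skeletal muscle, lung or testis gave low signal. Probe sets of Cox4i2, Cox6b2, Cox7a1, Cox7b2 and Cox8b lay below the filter on dim genes, with signals from 0.912 (Cox7b2) to 66.3 (Cox7a1) on single arrays. Cox6a2, the muscle counterpart of Cox6a1, was above it at 104 to 147 in WT and 86.5 to 138 in KO. Cox8c, a testis isoform, was just above it, at 125, 31.8, 27.7, 66.4 and 76.1 in WT and 47, 21.2, 31.7, 32.3 and 42.8 in KO. Its groups overlapped, and WT replicate 1 was the highest array. In Cox4i2, the lung isoform, singled out after its values were seen, the signals of 25.8, 30.1, 32, 45.1 and 26.8 in WT were all above the 23.9, 9.43, 1.22, 20.7 and 15.6 in KO. In a fit over all genes with no filter its difference was -0.72 (SE 0.26, limma adjusted p = 0.212), and after quantile normalization -0.48 with overlap between the groups.

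In complex V, 12 of 16 tested members were lower as deposited (median -0.15) and 9 of 16 after quantile normalization (median -0.05). Genes of its catalytic head lay on both sides of 0 as deposited, none passed limma's threshold there, and differences between them were not tested. Atp5b, for the catalytic beta subunit, was higher, at 436, 304, 531, 917 and 601 in WT and 720, 555, 1122, 995 and 937 in KO. WT replicates 4 and 5 lay among the KO arrays, and the other 3 WT arrays lay below all of them. Its difference was 0.67 (SE 0.26, limma adjusted p = 0.184), and 0.60 (limma adjusted p = 0.279) after quantile normalization. Atp5a1, for the alpha subunit that alternates with beta in the same ring, gave 16620, 18533, 15899, 16769 and 13990 in WT and 14061, 12473, 14734, 11908 and 11660 in KO. Only WT replicate 5 lay among the KO arrays, and the difference was -0.34 (SE 0.12, limma adjusted p = 0.146), or 0.01 after quantile normalization. Atp5c1, for the rotating gamma subunit, was at -0.15 (SE 0.16), and Atp5e, for the epsilon subunit beside it, at 0.06 (SE 0.19). After quantile normalization Atp5c1 was at 0.22 and Atp5e at -0.02. The probe set used for Atp5b had a mean log2 signal of 9.41, and that for Atp5a1 had 13.83, where most genes were lower as deposited.

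As deposited, Atp5d and Atp5h were the complex V genes with the smallest p, and after quantile normalization these were Atp5g3 and Atp5b. Atp5d encodes the delta subunit at the foot of the rotor, and gave 13493, 13540, 13862, 18294 and 16271 in WT and 11183, 10658, 10373, 9934 and 10489 in KO. All KO arrays lay below all WT arrays and close to each other. The mean was 15092 ± 2128 (SD, n = 5) against 10527 ± 454, a difference of -0.51 (SE 0.12, limma adjusted p = 0.0583) as deposited and -0.20 (SE 0.12, limma adjusted p = 0.422) after quantile normalization. Atp5h, for subunit d of the peripheral stalk, gave 24069, 32229, 18292, 22653 and 21498 in WT and 19064, 16341, 16277, 14927 and 13765 in KO. WT replicate 3 was below the highest KO array, and the other WT arrays were above all KO arrays. The difference was -0.55 (SE 0.145, limma adjusted p = 0.0777) and became -0.12 (limma adjusted p = 0.635). Among the other stalk genes Atp5pb (subunit b) was at -0.005, Atp5j (factor 6) at -0.12 and Atp5o (the oligomycin sensitivity protein) at 0.15.

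Atp5g1, Atp5g2 and Atp5g3 encode the same mature c subunit of the proton-driven ring behind different import peptides. Atp5g3 gave 9526, 7792, 9031, 9512 and 8582 in WT and 10358, 9975, 9999, 8783 and 8630 in KO. The groups overlapped as deposited, at 0.10 (SE 0.11, limma adjusted p = 0.664), and did not overlap after quantile normalization, at 0.30 (SE 0.10, limma adjusted p = 0.183), the only member to separate there, where 1.73% of genes tested were separated in that direction. Atp5g1 (341 to 776 in WT, 357 to 560 in KO) was at -0.16 (SE 0.21) and Atp5g2 (129 to 266 in WT, 119 to 248 in KO) at -0.14 (SE 0.23). Among the small membrane subunits, Atp5mpl was at -0.42 (SE 0.21, limma adjusted p = 0.312) and, unlike the brightest members, stayed at -0.45 after quantile normalization, and Atp5md was at -0.25 and -0.30. Atp5j2 was at -0.33 and -0.15, and Atp5k at -0.19 and -0.09. Atp5l, below the filter, was at 0.27 (SE 0.32) in the fit over all genes.

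**Figure D2:**
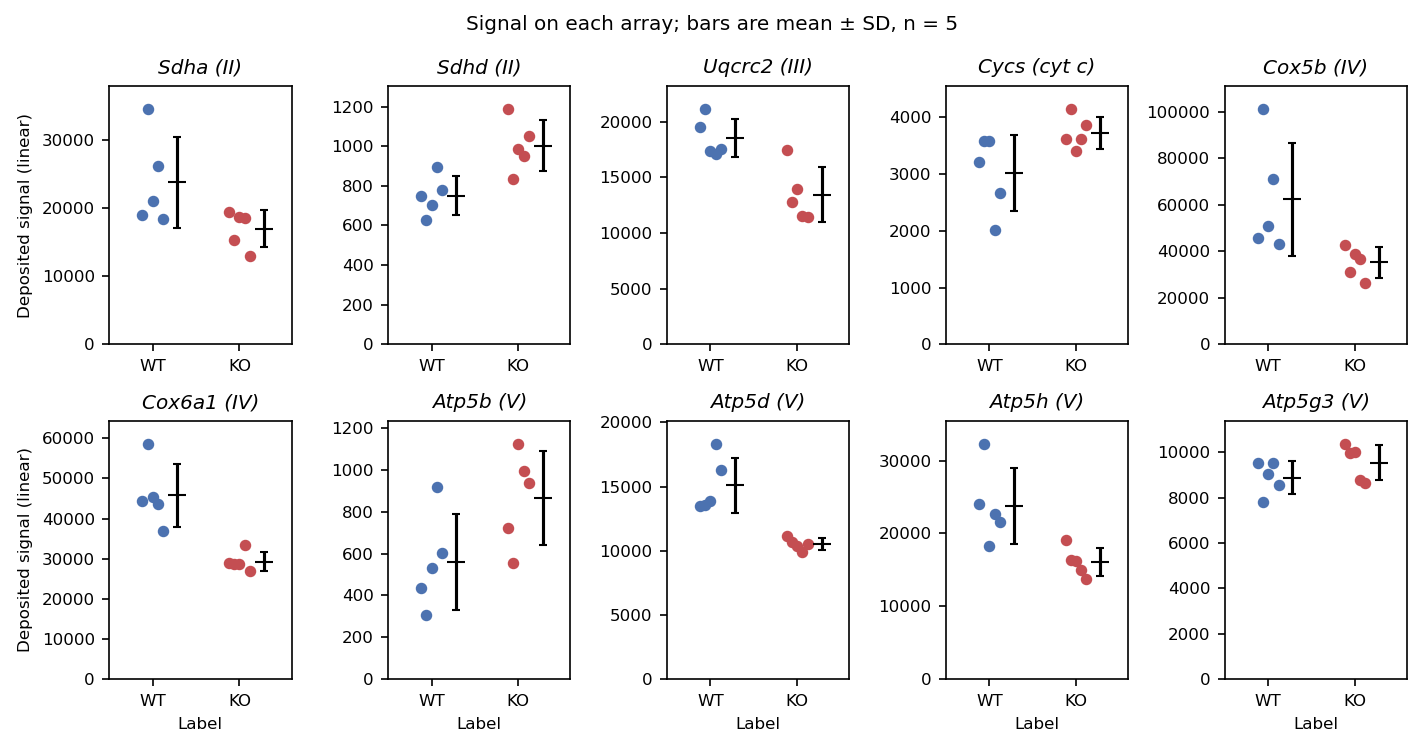
Points are the deposited linear signals of 10 members on the 5 arrays of each label, and bars beside them are the mean ± SD (n = 5), on axes that start at 0. In Cox6a1, Cox5b and Atp5d every KO point lies below every WT point, and in Sdhd, Cycs and Atp5b the KO points lie higher but overlap with WT.

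**Figure D3:**
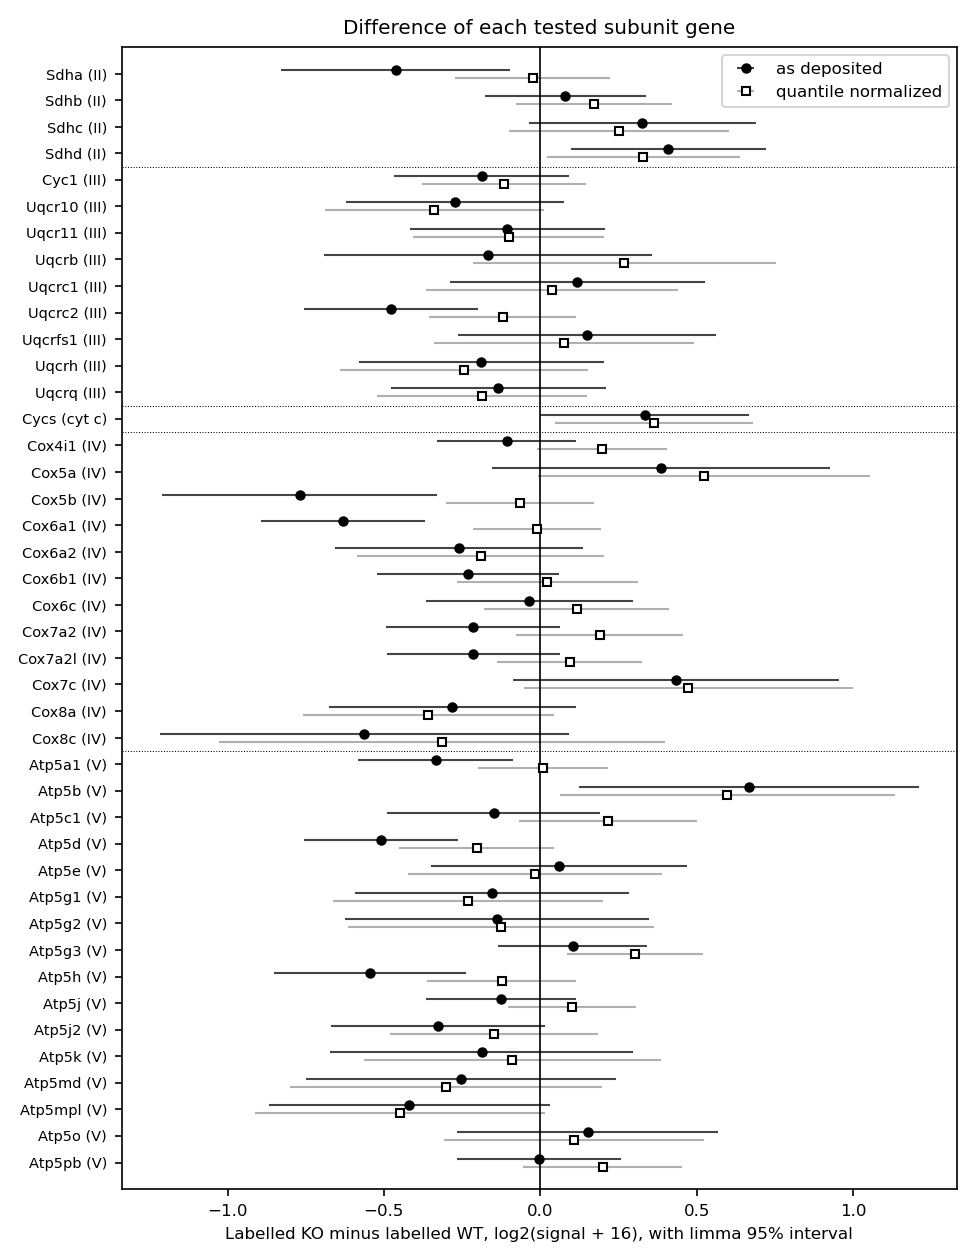
Each row gives the difference, labelled KO minus labelled WT in log2(signal + 16), of 1 tested gene with its limma 95% interval, as deposited (filled circles) and after quantile normalization (open squares). Cox6a1 moved from -0.63 to -0.01 and Cox5b from -0.77 to -0.06 between the scalings, while Sdhd (0.41 and 0.33), Cycs (0.33 and 0.36) and Atp5b (0.67 and 0.60) moved less.

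Groups did not overlap in 3 tested members as deposited, Cox6a1, Cox5b and Atp5d, all lower, where 3.13% of genes tested were separated in that direction and 1.88% in the other. No tested member was separated in the lower direction after quantile normalization (2.23% of genes tested). The 3 genes belong to the brightest 10% of genes tested, where 11.5% of all genes and 3 of 24 members were separated in the lower direction.

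As deposited, the members of high signal lay in classes of genes that were mostly lower. The median of all genes was -0.17 in the dimmest of 10 equal classes of signal, reached 0.08 between and was -0.14 in the brightest. Members were concentrated among bright probe sets, with 24 of 42 in the brightest 10% of genes tested, and all 7 members lower at unadjusted p below 0.05 were there. In that class 68.9% of all genes were lower and 28.3% were lower at unadjusted p below 0.05, beside 20 and 7 of the 24 members. At limma's adjusted p below 0.1, 13% of genes in that class and 5 of the 24 members were lower. At a mean log2 signal of 14 or more all 104 tested genes were lower, 89.4% of them at unadjusted p below 0.05, with a median of -0.51. The 6 members in this class had a median of -0.50, and 4 of them reached that p (Sdha, Cox5b, Cox6a1 and Atp5h). Between 13 and 14 the median was -0.30 over 197 genes and -0.18 over 10 members, and 48.2% of the genes and 3 of the members (Uqcrc2, Atp5a1 and Atp5d) reached it. Below the brightest 10% of genes 50.3% of genes and 10 of 18 members were lower, and 0 members were lower and 2 (Sdhd and Atp5b) higher at unadjusted p below 0.05, beside 8.03% and 8.34% of the genes. After quantile normalization the median of genes at 14 or more was -0.002 and that of the members there -0.02. As the arrays then share 1 distribution, a median near 0 over the brightest genes follows largely by construction. The classes at 13 and 14 were chosen after the values were seen.

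**Figure D4:**
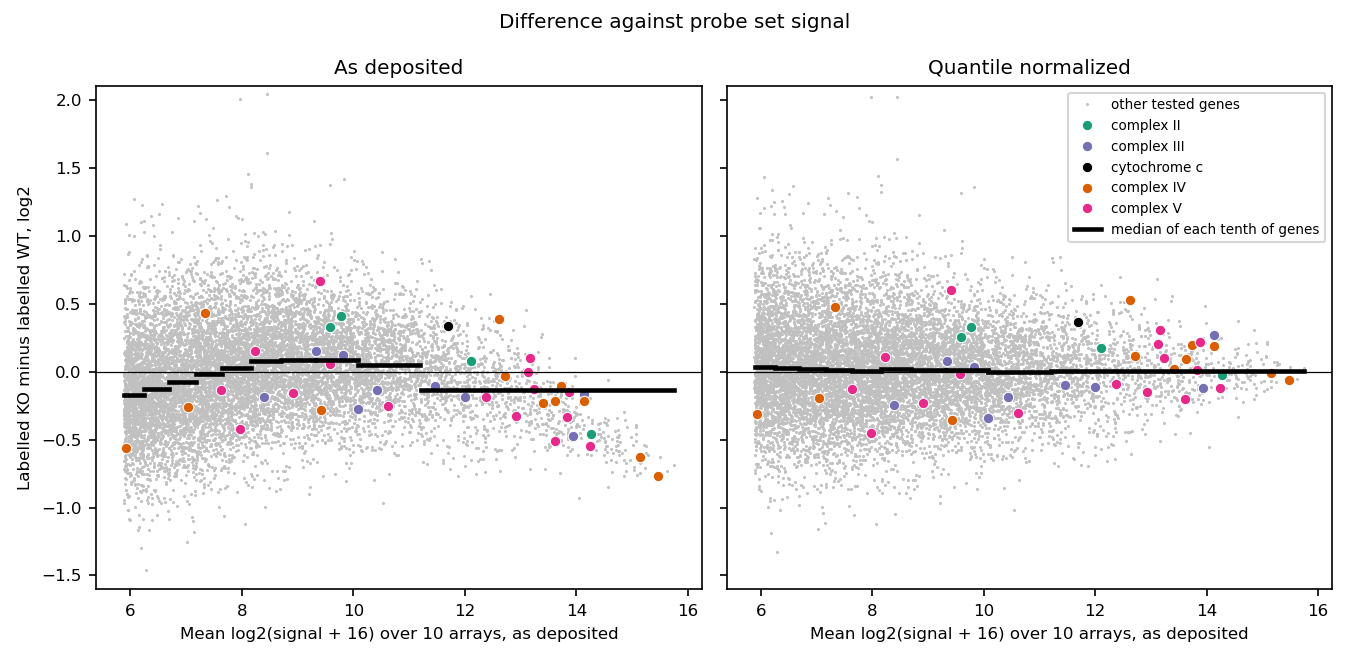
Each point is 1 of the 10916 tested genes, with the mean log2(signal + 16) on the horizontal axis and the difference between labels on the vertical axis, members in colour by complex and thick bars at the median of each of 10 equal classes of signal. As deposited (left) the bars run from -0.17 in the dimmest class through at most 0.08 to -0.14 in the brightest, and coloured points follow the downward slope at high signal. Quantile normalization (right) gives all arrays the same distribution and so removes this slope largely by construction.

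Different probe sets of the same gene often disagreed. Of the 24 members with more than 1 probe set above the filter, 11 had probe sets on both sides of 0 (45.8%, against 50.9% of 3856 such genes). Of the 13 whose brightest probe set was at 13 or more, 10 had a lower difference there than in their dimmest probe set (76.9%, against 86.1% of 237 genes), by a median of -0.53, and 6 of 13 after quantile normalization. Uqcrc2 was at -0.48 in the probe set used and 0.08 in the other, Atp5h at -0.55 and 0.07, Atp5d at -0.51 and 0.12, and Cox6a1 at -0.63 and -0.10. Sdha ran from -0.46 through -0.03 to 0.11 as its probe sets became dimmer. Sdhc went the opposite way, with 0.33 in the brighter and -0.53 in the dimmer. In Atp5a1 the dimmest of 3 probe sets was at -0.96 (SE 0.19, limma p adjusted over all probe sets = 0.115) and at -1.01 after quantile normalization, while the other 2 were at -0.34 and 0.11. With the dimmest probe set above the filter in place of the brightest, 24 of 42 members were lower and 0 passed limma's threshold (4 lower at unadjusted p below 0.05, beside 8.81% of all genes). Which of these probe sets reads the transcript without others was not tested.

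**Figure D5:**
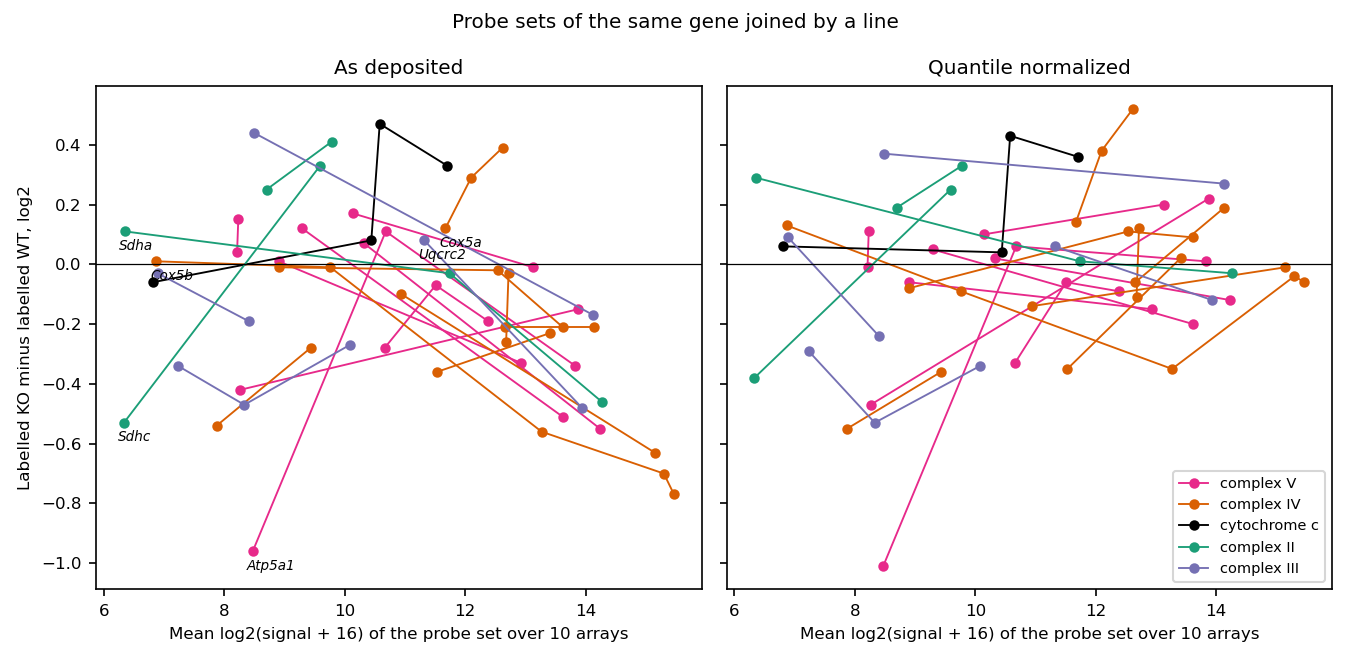
Points are the probe sets above the filter of the 24 members that have more than 1, joined by a line within a gene, with mean log2(signal + 16) on the horizontal axis and the difference between labels on the vertical axis. As deposited (left) lines that end above 13 mostly run downward to the right, as in Cox5b, from 0.01 to -0.77, and after quantile normalization (right) the lines have no common slope.

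Genes that assemble complexes II to V, from a list of known factors, were split 19 lower to 12 higher among 31 tested (median -0.06; -0.08 after quantile normalization) and 0 past limma's threshold (3 lower and 2 higher at unadjusted p below 0.05). Over all genes tested 0.11% passed, and 10.1% were lower and 7.95% higher at that unadjusted p. The complex II factor gene Sdhaf3 was higher without overlap, at 0.61 (SE 0.19, limma adjusted p = 0.116) and 0.64 after quantile normalization, and Sdhaf2, for the factor that attaches flavin to Sdha, was at 0.32 (SE 0.16). For complex III they were Uqcc2 at -0.30 (SE 0.15) and Ttc19 at -0.35 (SE 0.20). For complex IV they were Cmc2 at -0.51 (SE 0.18, limma adjusted p = 0.158) and Surf1 at -0.35 (SE 0.14), at -0.53 and -0.27 after quantile normalization. Atpif1, the inhibitor of ATP hydrolysis by complex V, was at -0.37 (SE 0.14) and turned to -0.02, and Atpaf2 was at -0.40 (SE 0.27).

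Genes of the citric acid cycle and pyruvate dehydrogenase were split 8 lower to 7 higher, and 0 of 15 passed limma's threshold (1 lower and 3 higher at unadjusted p below 0.05). Over all genes tested 52.2% were lower, 0.11% passed, and 10.1% were lower and 7.95% higher at that unadjusted p. Citrate synthase, Cs, was lower without overlap, at -0.44 (SE 0.13, limma adjusted p = 0.0998), and -0.16 after quantile normalization. Sucla2, for a succinate-CoA ligase subunit, was higher without overlap, at 0.32 (SE 0.12, limma adjusted p = 0.185) and 0.44. Of 16 tested factors of mitochondrial biogenesis 12 were higher (median 0.14; 0.16 after quantile normalization), 0 passed limma's threshold and 4 were higher and 1 lower at unadjusted p below 0.05, beside the same shares over all genes (7.95% higher and 10.1% lower). Gabpa, whose product binds the letters CCGGAAG, was at 0.63 (SE 0.17, limma adjusted p = 0.0823) without overlap, and at 0.56 after quantile normalization. Ppargc1a, a coactivator of these factors, was at 0.66 (SE 0.23, limma adjusted p = 0.147) and 0.61. Nrf1 was at -0.06 (SE 0.26) and Esrra at -0.14 (SE 0.20). These lists were tested gene by gene and no test compared them with the subunit genes.

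Complex I subunit genes and cytosolic ribosomal protein genes were mostly lower as deposited, too. Complex I had 24 of 33 tested genes lower (median -0.18; -0.04 after quantile normalization), 2 past limma's threshold, Ndufv3 and Ndufb11, and 11 lower and 1 higher at unadjusted p below 0.05. Over all genes tested 52.2% were lower, 0.11% passed, and 10.1% were lower and 7.95% higher at that unadjusted p. In the brightest 10% of genes tested, 28.3% were lower at it. Of these 2, Ndufv3 stayed at -0.45 after quantile normalization (limma adjusted p = 0.0861), and Ndufb11 moved from -0.59 to -0.05. Ribosomal protein genes had 35 of 40 lower (median -0.34; -0.05 after quantile normalization). Differences between these groups and complexes II to V were not tested.

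Marker genes of other cells were set beside these values as mean log2 signals per array. The 4 oligodendrocyte markers on the array lay at 9.51 to 10.07 in WT and 8.9 to 9.45 in KO, without overlap. Among them Mbp was at -0.48 and Mag at -0.59, Mobp was at 0.10 and Mog lay below the filter, and the median of the 3 tested turned from -0.48 to 0.09 after quantile normalization. Ranges of the other lists overlapped. Neuronal markers, 5 of 5 above the filter, lay at 9.41 to 9.92 in WT and 9.46 to 10.07 in KO. Snap25 was at 0.60 (limma adjusted p = 0.0907), Syt1 at 0.22, Rbfox3 at -0.17, Stmn2 at -0.35 and Tubb3 at -0.23. Astrocyte markers lay at 10.65 to 11.09 and 10.64 to 10.88, with Gfap at -0.73 (limma adjusted p = 0.0568), Aqp4 at -0.02, Aldh1l1 at 0, Slc1a3 at 0.16 and Slc1a2 at -0.08. Microglial markers lay at 7.25 to 7.91 and 7.2 to 7.83, with Aif1, P2ry12 and Tmem119 below the filter. Both tested microglial markers were lower, Csf1r at -0.58 (limma adjusted p = 0.0746) and Cx3cr1 at -0.65, with a median of -0.62 as deposited and -0.56 after quantile normalization. Endothelial markers lay at 6.84 to 7.39 and 6.54 to 7.06, with Pecam1 below the filter and 4 of 4 tested lower (median -0.35; -0.36 after quantile normalization, 3 of 4 lower). Those of choroid plexus and ependyma lay at 6.16 to 7.01 and 6.35 to 7.38, those of striatum at 5.64 to 6.02 and 5.62 to 6.66, and those of other hypothalamic nuclei at 6.7 to 7.85 and 6.14 to 7.26. Striatal markers were at 6.66, 6.57 and 6.62 on KO replicates 1 to 3 and at 5.75 and 5.62 on KO replicates 4 and 5. Drd1 was at 1.24 (limma adjusted p = 0.163) and Rgs9 at -0.25, with Drd2 and Ppp1r1b below the filter. Preoptic markers lay at 7.55 to 8.03 and 7.95 to 8.34, with 7 of 7 higher as deposited (median 0.34) and 6 of 7 after quantile normalization (0.27). No marker passed limma's threshold. Their part in the subunit values was not tested, and in captured tissue fewer cells of a type and less RNA per cell cannot be told apart.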

How the data were processed

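Linear probe set intensities were taken as deposited, and GCOS is the only tool in the submitters' processing notes. Its version and settings were not stated. Without the lowest 2% and highest 2% of 45101 probe sets, every array had a mean of 200.002. Of these probe sets 34945 named a single gene in the platform annotation and stood for 18193 genes. Analysis used log2(intensity + 16) without the dimmest 40% of genes (mean up to 5.89), which left 10916; fold changes on this scale understate those of dim genes. KO minus WT was tested two-sided with limma (lmFit and eBayes, trend on intensity) over all 10 arrays, 5 per label, with no covariate. Each array is 1 mouse, and the spread behind p-values holds dissection, amplification and array effects as well as mice. Precision is limited by the number of arrays.

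The naming rule took all Sdh genes and Cycs, from each of complexes III, IV and V the 4 tested genes with the smallest p and the one with the largest positive difference, every member past the threshold, the c-subunit genes, tissue-restricted isoforms by level, and the 2 genes with the smallest p of each other list. Other genes were named to account for all members or after their values were seen. The members and lists were chosen with earlier results of these data known. Alternatives covered the pseudocount (1 and 64), scaling, the filter, the choice of probe set, the trend, array weights, the replicate number or spike-in signal (100 or more) as a block, the 7 arrays with such signal, and single arrays left out. The labels do not say whether arrays of the same replicate number were paired. Deviations of same-numbered arrays correlated between -0.15 and 0.068, which cannot settle it, and the main fit used no pairing. At most 0.00443% of values were the same between any arrays. The fit was also run on simulated data, whose settings and outcome are not given here, and no result above rests on that run. The software was R 4.3.3, limma 3.58.1, Python 3.11.15, pandas 2.3.3, numpy 2.4.6 and matplotlib 3.10.9.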

Additional observations from a re-analysis of the deposited data

Results flagged for a closer look

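Of 44 groups of 5 values examined (each named member in each label, and the median deviation of all tested members), 5 held 1 array far from the other 4, where chance gives about 1 in 20 groups. Sdhc was low in WT replicate 2, at 8.86 against 9.47 for the nearest array on the log2 scale, and low in KO replicate 1, at 9.47 against 9.76. Cox7c was high in WT replicate 5, at 7.98 against 7.12. Uqcrfs1 was low in WT replicate 3, at 8.66 against 9.31. The median deviation of the 42 tested members was low in WT replicate 3, at -0.11 against 0.08.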

How the results depend on the processing

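The lower signal of the members as deposited depended on the scaling. Quantile normalization gave 0 genes past the threshold instead of 12, 0 lower and 4 higher members at unadjusted p below 0.05 instead of 7 and 2, a member median of -0.0017 instead of -0.161, 0.057 for complex IV instead of -0.223, and 0.008 for Atp5a1. With spike-in signal as a block in addition, these were 0 genes, 0 lower members, 0.0027 and 0.023, with Sdha at 0.0099 and Atp5a1 at 0.028. Median centring subtracts a constant from each array, so all differences shift by the same amount. It moved the median of all genes from -0.019 to 0.261, and that of the members stayed 0.143 below by construction. It gave 983 of 10916 genes past the threshold, 4 of them members (Cox6a1 lower, and Sdhd, Cycs and Atp5b higher). At unadjusted p below 0.05 it gave 3 lower and 8 higher members, beside 1.63% lower and 27.4% higher of all genes. Of the 42 members 11 were lower. The medians were 0.118 over the members, 0.483 for complex II, 0.112 for III, 0.057 for IV and 0.127 for V. Uqcr10 was then at 0.0058, Cyc1 at 0.091, Uqcrh at 0.09, Atp5g1 at 0.124 and Atp5g2 at 0.141. Genes past the threshold were 3 with no filter, 88 without the dimmest 60%, 1 with probe sets averaged per gene, 0 with no trend, 174 with array weights, 0 with spike-in signal as a block and 0 on the 7 arrays with such signal. On those 7 arrays 1 member was higher at unadjusted p below 0.05, beside 6.21% of all genes. Members past the threshold were 2 (Cox6a1 and Atp5d) without the dimmest 60% and 2 (the same genes) with array weights. The mean of probe sets gave 0.011 for complex II, -0.1 for Sdhc and 0.065 for both Atp5g1 and Atp5g2. The dimmest probe set, an alternative chosen after seeing the data, gave 2 genes and 4 lower members, beside 8.81% of all genes lower at unadjusted p below 0.05. It gave -0.035 for complex III, 0.111 for Sdha, -0.526 for Sdhc, -0.064 for Cycs, 0.084 for Uqcrc2, 0.013 for Cox5b, 0.121 for Atp5d and 0.073 for Atp5h. With the replicate number as a block, which the labels do not state to be a pairing, 1 gene and 0 members passed (smallest limma adjusted p of a member 0.101).

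Leaving out single arrays gave 0 to 35 genes past the threshold: the count was 35 when WT replicate 5 was dropped, 32 for WT replicate 3, 21 for KO replicate 1, 5 for KO replicate 4 and 0 for any of the other 6 arrays. Members past it were 0 to 1 (Cox6a1 without WT replicate 5). At unadjusted p below 0.05 there were 6 to 11 lower and 2 to 5 higher members, with 11 and 5 without WT replicate 3. Of all genes 8.25% to 10.6% were lower and 6.43% to 9.27% higher at that p. The member median lay between -0.196 and -0.126 and that of complex IV between -0.251 and -0.155. Other medians moved by over 1.5 times: complex II from 0.203 to 0.117 when WT replicate 2 was dropped, complex III from -0.167 to -0.077 for KO replicate 3, and complex V from -0.152 to -0.248 for KO replicate 1 and -0.096 for KO replicate 2. Among single genes Sdhc moved from 0.326 to 0.184 for WT replicate 2, Cycs from 0.333 to 0.198 and Cyc1 from -0.188 to -0.087 for WT replicate 4, Cox8c from -0.563 to -0.331 for WT replicate 1, Uqcrh from -0.189 to -0.101 for KO replicate 3 and -0.334 for KO replicate 1, Sdhb within 0.049 to 0.142, Atp5g2 within -0.269 to -0.017 and Atp5g3 within 0.057 to 0.139. Uqcrfs1 ranged from -0.00019 to 0.252 and Atp5g1 from -0.285 to 0.0028. The causes of these changes were not tested. Signal over background could not be judged per array, since no detection calls were used.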
